A study of Homo sapiens with 16 samples.

Results

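The mitochondrial protein import genes examined here are 33 nuclear genes whose proteins carry, thread, fold or process precursors on their way from the cytosol into mitochondria. They were taken by symbol from the table of gene-level values, in which they are 33 of 58051 gene identifiers. All 33 passed the filter on low values, a mean normalized count of at least 10 over the 16 libraries, and were among the 13765 genes tested. By role they comprise 8 genes of the translocase of the outer membrane (TOM), its cytosolic partner TOMM34, 5 genes of the inner-membrane TIM23 translocase, 6 of the motor that pulls precursors through it, 2 of the TIM22 complex, 6 small TIM chaperones, 2 of the oxidation relay of the intermembrane space, 2 of the presequence protease, and TIMMDC1, a complex I assembly factor related to TIM17 proteins.

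The RNA came from P493-6, an immortalised human B cell line that carries a doxycycline-repressible MYC transgene and an EBNA2 protein that needs oestrogen to act. Cells labelled high MYC grew in DMEM with serum and no additive, and cells labelled medium MYC received 0.1 µg/mL doxycycline plus 1 µM β-estradiol from 24 h before treatment. Both kinds of culture were then kept for 24 h with DMSO alone or with 100 nM IMP1088, a small molecule that blocks the myristoylating enzymes NMT1 and NMT2. Each of the 4 resulting groups had 4 libraries. The labels do not say whether replicates were separate cultures, so p-values measure the spread between these libraries, which may be technical. Because the medium setting differs by MYC, doxycycline and estradiol together, these cannot be told apart, and all comparisons of MYC level carry that limit.

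Most mitochondrial proteins are made in the cytosol and recognised at the outer membrane by the receptors TOMM20, TOMM22 and TOMM70, which hand them to the pore formed by TOMM40. Proteins with a cleavable presequence continue through TIM23 with the help of the HSPA9 motor and are trimmed by the protease PMPCA/PMPCB, carrier proteins are escorted by small TIM chaperones to TIM22, and small cysteine-rich proteins are trapped in the intermembrane space by the CHCHD4/GFER relay. MYC is known for raising nuclear genes of mitochondrial biogenesis in proliferating B cells.

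Library depth lay between 8755296 and 13858534 reads, 18899 to 21081 genes per library had a value above 0, and the import genes had between 63 and 9156 reads each in every library. MYC itself, the check of the labels, had a mean normalized count of 31649 at high and 959 at medium MYC in DMSO. With IMP1088 these means were 47542 and 1382. MYC RNA was thus also higher with IMP1088 than with DMSO at each setting, a rise called in all 32 alternative fits. Each of these MYC contrasts had an exact permutation p of 0.0286, the smallest that 4 against 4 libraries allow, and 0.0429 after Benjamini-Hochberg adjustment over 12 such tests. NMT1 did not pass the test for either response to IMP1088 (limma adjusted p 0.321 at high and 0.247 at medium MYC). NMT2 was called for neither response in any of 31 alternative fits. Both were higher at medium than at high MYC, called in all 31 alternatives for NMT1 and all 30 for NMT2. The log2 change of NMT1 ran from 0.17 to 0.21 in DMSO and from 0.16 to 0.21 with IMP1088. For NMT2 it ran from 0.93 to 2.45 and from 1.35 to 3.31. The part of these shifts in the responses to IMP1088 was not tested. All 9 B cell markers examined were above 0 in every group. Summed T cell markers ran from 28.0 to 77.9 and myeloid markers from 41.4 to 83.6 normalized counts over all libraries. These sums were mainly CD3E and LYZ, which averaged 41.2 and 53.4 over all libraries, while every other marker of these lists averaged 4.53 or less. Of the 4 epithelial markers KRT18 was at 0 in every library and KRT8 near 1 on average, while EPCAM had means of 62.1 at high and 13.1 at medium MYC in DMSO and CDH1 of 0.188 and 55.4, and their sum ran from 56.5 to 112. Of the 4 fibroblast markers DCN was at 0 in every library and COL1A2 averaged 2.19 over all libraries, while PDGFRB had DMSO means of 123 and 436 and COL1A1 of 7.09 and 164.

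Promoter sequences are shown first for 3 members on which the results below turn: TOMM20 and CHCHD4, among the largest falls with the lower MYC setting, and GFER, which rose there although it works in the same relay as CHCHD4. They are RefSeq sequences of build GRCh38.p14, the 250 bases directly upstream of the RefSeq start, written 5′ to 3′ on the gene's strand. Capitals mark the E-box CACGTG, the element bound by MYC with MAX, and the element GCGCANGCGC of NRF1, a regulator of nuclear genes for mitochondria, both searched on both strands; these motifs did not overlap each other in the stretches.
TOMM20 promoter, chr1:235128838-235129087, minus strand: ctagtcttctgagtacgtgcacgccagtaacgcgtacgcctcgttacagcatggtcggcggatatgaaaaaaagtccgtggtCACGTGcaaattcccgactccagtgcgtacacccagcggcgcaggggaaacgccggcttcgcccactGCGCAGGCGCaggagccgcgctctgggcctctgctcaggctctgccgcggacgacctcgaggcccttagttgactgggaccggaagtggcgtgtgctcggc
CHCHD4 promoter, chr3:14124871-14125120, minus strand: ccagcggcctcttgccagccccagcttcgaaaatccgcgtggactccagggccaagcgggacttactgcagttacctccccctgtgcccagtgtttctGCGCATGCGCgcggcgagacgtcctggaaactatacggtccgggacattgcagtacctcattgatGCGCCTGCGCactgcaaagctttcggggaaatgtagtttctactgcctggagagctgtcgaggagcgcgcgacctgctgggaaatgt
GFER promoter, chr16:1983943-1984192, plus strand: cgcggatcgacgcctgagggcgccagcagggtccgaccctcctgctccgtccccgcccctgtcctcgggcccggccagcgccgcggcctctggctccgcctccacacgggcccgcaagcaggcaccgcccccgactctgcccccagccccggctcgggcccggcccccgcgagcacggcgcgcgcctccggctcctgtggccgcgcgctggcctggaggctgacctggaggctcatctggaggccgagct
In TOMM20 the E-box began at -168 and the NRF1 element at -101 relative to the start, and in CHCHD4 NRF1 elements began at -152 and -87. The GFER stretch held neither run of letters, which says only that they are absent from this window. Windows from 250 bases before to 50 after the start were given for 30 of the 33 members, all but TOMM5, GRPEL1 and TIMM8B. Counted by gene, the E-box was present in 4 of these 30 members (TOMM20, HSPA9, TIMM10 and TIMM8A), or 13.3%. The share was 12.9% of tested genes with a window and 8.77% of all genes with a window. For the NRF1 element these were 7 members (TOMM7, TOMM20, TOMM40, TOMM34, PAM16, TIMM29 and CHCHD4), or 23.3%, against 14.0% of such tested genes and 6.98% of all such genes. Most of the 30 members had neither element in the window, although 26 of the 33 members fell with the lower MYC setting in DMSO. TIMM29 held NRF1 elements at -190 and -74 and was not called there, so the 3 printed stretches do not stand for the members. These matches are descriptions of the sequence, not sites of binding, and their relation to the changes was not tested.

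With the lower MYC setting the import genes as a group were lower. In DMSO, 26 of the 33 were called lower at medium than at high MYC (limma, adjusted p under 0.05 over all tested genes) and 2 were called higher, with a median log2 change of -0.74 over the 33. Over all 13765 genes 76.2% were called, 38.9% higher and 37.3% lower, and the median was 0.02. For 26 members every medium MYC library lay below every high MYC library, which held for 33.6% of all genes. Together the 33 genes took 0.289% ± 0.00377 (SD, n = 4) of the reads of high MYC libraries in DMSO and 0.160% ± 0.000747 (SD, n = 4) at medium MYC. HSPA9 alone made up 0.0676% and 0.0348%, and the other 32 genes fell from 0.221% to 0.125%. These are levels relative to the other RNAs of a library. In such bulk samples fewer cells of a type and less RNA per cell cannot be told apart, and total RNA per cell is not among the values analysed here.

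Of the TOM genes, 7 of 8 fell, and the median change over the 8 was -1.0 on the log2 scale. The presequence receptor TOMM20 (ENSG00000173726, chr1:235109336-235128936, minus strand, GRCh38 in GENCODE release 29), whose promoter stretch is printed above, showed the largest fall of any member. Its normalized counts in the 4 high MYC DMSO libraries were 2387, 2586, 2777 and 2723, against 776, 801, 753 and 755 at medium MYC. No medium MYC library came within reach of a high MYC one, and the log2 change was -1.76 (SE 0.04, limma adjusted p 5.35e-20), a 3.39-fold fall. TOMM7, a small subunit of the complex, fell from 616 ± 41.7 to 258 ± 12.01 normalized counts (mean ± SD, n = 4), or -1.25 (SE 0.06, limma adjusted p 4.17e-14) as a log2 change. The pore TOMM40 went from 1764 ± 78.8 to 857 ± 61.7 (log2 change -1.04), and the small subunit TOMM5 from 1724 ± 35.1 to 793 ± 43.00 (-1.12). The central receptor TOMM22 (-0.96), the receptor for hydrophobic carrier precursors TOMM70 (-0.88) and the small subunit TOMM6 (-0.67) also fell, each with limma adjusted p of 2.81e-10 or less. TOMM34, a cytosolic co-chaperone that binds precursors together with HSP70 and HSP90, fell from 788 ± 16.1 to 477 ± 29.4 (-0.72, limma adjusted p 1.61e-12). The whole annotated exon sequence of TOMM6 is shared with another annotated gene on its strand, so its counts are uncertain. TOMM20, TOMM22 and other members have named pseudogenes (4 and 6 for these) that could share reads.

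TOMM40L (ENSG00000158882, chr1:161225939-161230744, plus strand), a homologue of TOMM40, was the exception in the outer membrane. The 4 high MYC DMSO libraries had 170.2, 172, 177 and 162 normalized counts and the medium MYC libraries 176, 179, 227 and 213. The lowest medium library lay inside the high MYC range. The log2 change was 0.21 (SE 0.09, limma adjusted p 0.0423). The call was lost in 10 of 31 alternatives, among them leaving out high MYC DMSO replicate 1, 2 or 4 or medium MYC DMSO replicate 3 or 4, and the adjusted p was 0.163 without medium MYC DMSO replicate 3.

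In the TIM23 translocase 4 of 5 genes fell, with a median of -0.42. TIMM50, the receptor that takes precursors from the outer membrane, fell from 992 ± 33.6 to 459 ± 36.9 normalized counts (-1.11, limma adjusted p 3.22e-14). TIMM21, which links TIM23 to TOM and to respiratory chain assembly, changed by -0.53 and the channel-forming TIMM17A by -0.42. The channel protein TIMM23 moved least among the called genes of the translocase, from 777 ± 22.4 to 691 ± 20.6 (-0.17 (SE 0.04, limma adjusted p 0.000453)), although the groups did not overlap. TIMM23 has a near-identical copy, TIMM23B. The submitters' processing notes name RSEM, and how well reads were divided between the copies was not tested. TIMM17B, the X-linked paralog of TIMM17A, was not called, with 222 ± 11.1 and 230.2 ± 14.7 normalized counts (log2 change 0.05, 95% confidence interval -0.10 to 0.20, limma adjusted p 0.537).

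Of the motor genes 5 of 6 fell, with a median of -0.95. GRPEL1 (ENSG00000109519, chr4:7058906-7068197, minus strand), the nucleotide exchange factor of mitochondrial HSP70, had 913, 1001, 917 and 914 normalized counts in the high MYC DMSO libraries and 284, 306, 258 and 293 in the medium MYC libraries. The groups were far apart, and the log2 change was -1.71 (SE 0.06, limma adjusted p 4.21e-17), a 3.28-fold fall. PAM16, a J-like regulator of the motor, fell from 189 ± 19.9 to 70.6 ± 12.1 (-1.42), and HSPA9, the mitochondrial HSP70 that does the pulling, from 6991 ± 145 to 3596 ± 53.99 (-0.96). TIMM44, which tethers HSPA9 to the channel, changed by -0.94 and the J-protein DNAJC19 by -0.61, both without overlap between groups. The other J-protein, DNAJC15, was not called: its counts were 103 ± 14.4 and 120.1 ± 4.29, a log2 change of 0.23 with an interval of -0.01 to 0.46 and an adjusted p of 0.0703 (limma). DNAJC19 has 9 named pseudogenes, the most of any member.

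TIM22, the translocase for carriers and other multi-pass proteins, had its channel gene TIMM22 lower, from 415 ± 16.97 to 311 ± 25.1 (-0.42, limma adjusted p 9.41e-05), while its subunit gene TIMM29 was not called (0.03, interval -0.18 to 0.24). Of the 6 small TIM chaperones 5 fell, with a median of -0.77. TIMM13, which pairs with TIMM8A, fell most, from 747 ± 35.8 to 281 ± 17.6 (-1.41), and TIMM8A followed from 257 ± 26.4 to 118 ± 3.55 (-1.11). The TIMM8A homologue TIMM8B (-0.81) and the partners TIMM9 (-0.74) and TIMM10 (-0.70), which form a ring together, also fell, each without overlap. TIMM10B, the member of this group that docks at TIM22, stayed at 536 ± 15.9 and 536 ± 8.35 normalized counts (log2 change 0.00, interval -0.09 to 0.09, limma adjusted p 0.997). Parts of TIMM13, TIMM8B and TIMM9 overlap exons of LMNB2, NKAPD1 and KIAA0586. Of these, LMNB2 was higher at medium MYC (2095 against 2989 mean normalized counts), and NKAPD1 (621 against 392) and KIAA0586 (551 against 328) were lower, and their part in the values of the import genes was not tested.

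The oxidation relay split. CHCHD4 (ENSG00000163528, chr3:14112077-14124870, minus strand), the oxidoreductase that puts disulfide bonds into incoming proteins, had 261, 267, 270.4 and 256 normalized counts in the high MYC DMSO libraries and 82.4, 78.8, 91.02 and 92.7 in the medium MYC libraries. The medium MYC values were all far below, at -1.60 (SE 0.07, limma adjusted p 1.58e-14), a 3.04-fold fall. GFER (ENSG00000127554, chr16:1984207-1987749, plus strand), the sulfhydryl oxidase that re-oxidises CHCHD4, had 161, 147, 125 and 136 against 156, 172, 187 and 174. Its groups overlapped, since the lowest medium MYC library lay below the highest high MYC library, but the rise passed the test at 0.28 (SE 0.09, limma adjusted p 0.00622). Of the GFER exons, 695 of 2687 bases are shared with an annotated antisense gene, and whether counting was strand-specific is not given in the sources used here.

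The presequence protease split as well. PMPCA, its substrate-binding subunit, fell from 1605 ± 59.00 to 960.2 ± 41.7 (-0.74, limma adjusted p 2.55e-13). Its catalytic subunit PMPCB was not called, at 826 ± 48.95 and 813 ± 24.9 (-0.02, interval -0.12 to 0.08, limma adjusted p 0.682). PMPCB shares 628 exon bases with DNAJC2 on the opposite strand, whose own mean normalized count went from 823 to 324. TIMMDC1 fell from 451 ± 34.7 to 366 ± 18.8 (-0.30, limma adjusted p 0.000202). It shares 798 exon bases with CD80 on the opposite strand, which went the other way, from 6.35 to 677. Exons of 18 of the 33 members overlap those of another annotated gene, 13 of them by at least 100 bases.

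**Figure D1:**
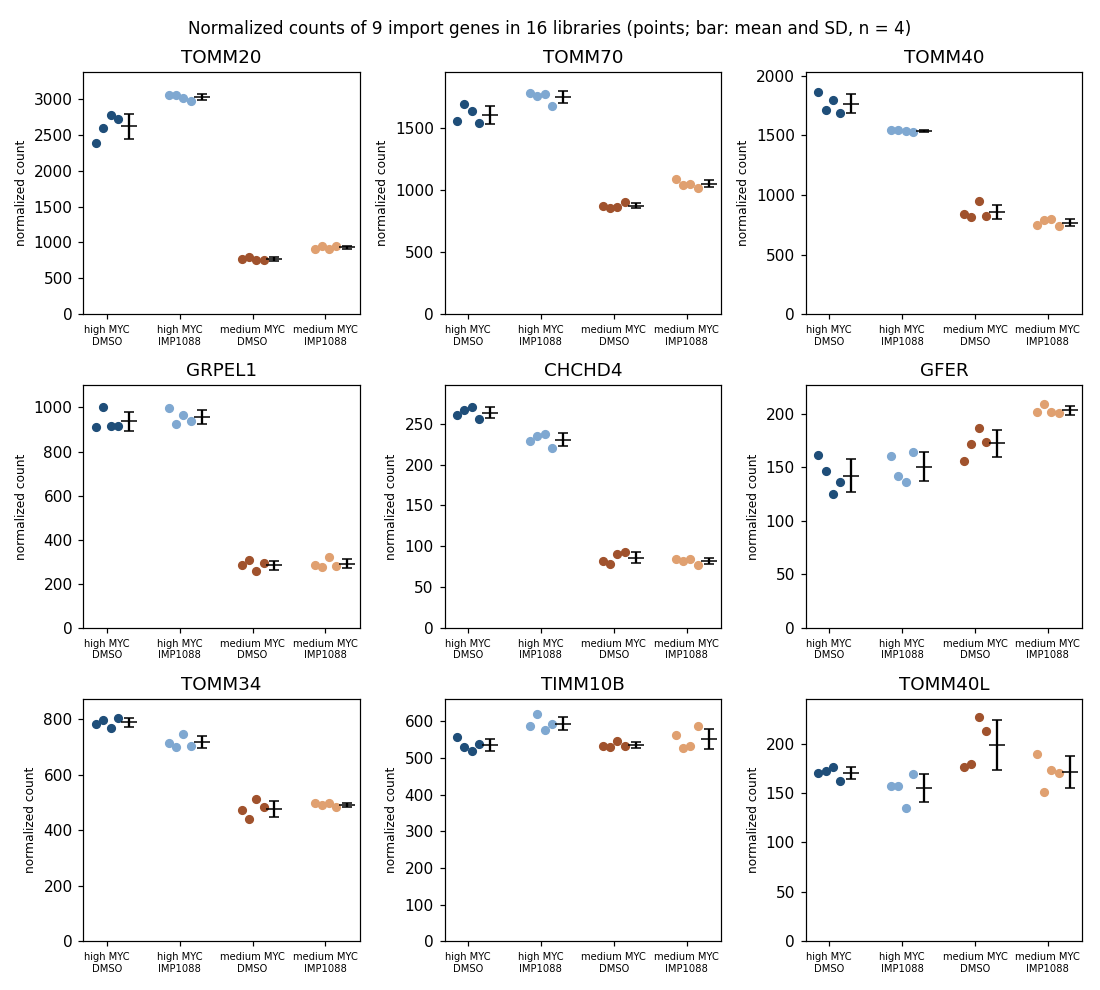
Normalized counts (y axis, linear, from 0) of 9 import genes in the 16 libraries, by group (x axis); points are libraries and the bar beside them is the mean with its SD (n = 4). TOMM20, TOMM70, TOMM40, GRPEL1, CHCHD4 and TOMM34 sit lower at medium MYC without overlap, while TIMM10B stays near 536 in both DMSO groups and GFER and TOMM40L run slightly higher.

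Some other transcripts moved with the MYC setting. All 3 plasma cell markers examined (SDC1, PRDM1 and JCHAIN) were above 0 in every group. Their summed normalized count, mostly JCHAIN, was 7076 to 8621 in high MYC DMSO libraries and 825 to 951 in medium MYC DMSO libraries, and with IMP1088 8862 to 8982 and 1295 to 1412. The 9 B cell markers summed to 41350 to 43760 at high MYC and 63620 to 67500 at medium MYC in DMSO, and to 34840 to 36020 and 57630 to 59210 with IMP1088. The 4 fibroblast markers, mainly PDGFRB and COL1A1 with DCN at 0, summed to 122 to 134 and 571 to 649 in DMSO and to 68.1 to 96.8 and 497 to 537 with IMP1088. The part of these shifts in the import gene values was not tested.

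The same comparison in IMP1088 libraries gave nearly the same members. At medium MYC 27 of the 33 genes were lower and 1 was higher, with a median of -0.69, where over all genes 77.5% were called, 39.7% higher and 37.8% lower. For 26 members the groups did not overlap with medium MYC below, against 35.4% of all genes. All 26 members that fell in DMSO were among the 27 that fell here, and of all genes lower in DMSO 90.2% were lower here too. The 2 comparisons use different libraries. GRPEL1 had 998, 926, 967 and 939.7 normalized counts at high and 288, 277, 323 and 279 at medium MYC with IMP1088, or -1.71 (SE 0.06, limma adjusted p 3.89e-17) on the log2 scale. For TOMM20 these were 3051, 3056, 3012 and 2960.4 and 915, 955, 907 and 949.8 (-1.70 (SE 0.04, limma adjusted p 1e-19)). CHCHD4 went from 229, 235, 237 and 220.4 to 83.9, 81.5, 84.6 and 76.6 (-1.49 (SE 0.07, limma adjusted p 5.71e-14)). In none of these genes did a medium MYC library reach a high MYC one.

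GFER was again higher, with 160.2, 142, 136 and 164 normalized counts at high and 202, 209.6, 202 and 201 at medium MYC under IMP1088. Here the groups did not overlap, and the log2 change was 0.43 (SE 0.09, limma adjusted p 0.000109). TIMM10B was the added fall, 594 ± 18.1 to 553 ± 27.7 with overlapping groups, at -0.11 (SE 0.04, limma adjusted p 0.0317). This call was lost in 9 of 31 alternatives, with adjusted p up to 0.105, among them without medium MYC IMP1088 replicate 2. TOMM40L did not pass (0.14, interval -0.05 to 0.34), nor did TIMM17B (0.05), DNAJC15 (0.23), TIMM29 (0.20) and PMPCB (0.01). By role the medians were -0.92 for TOM, -0.31 for TIM23, -0.78 for the motor and -0.76 for the small TIM chaperones.

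**Figure D2:**
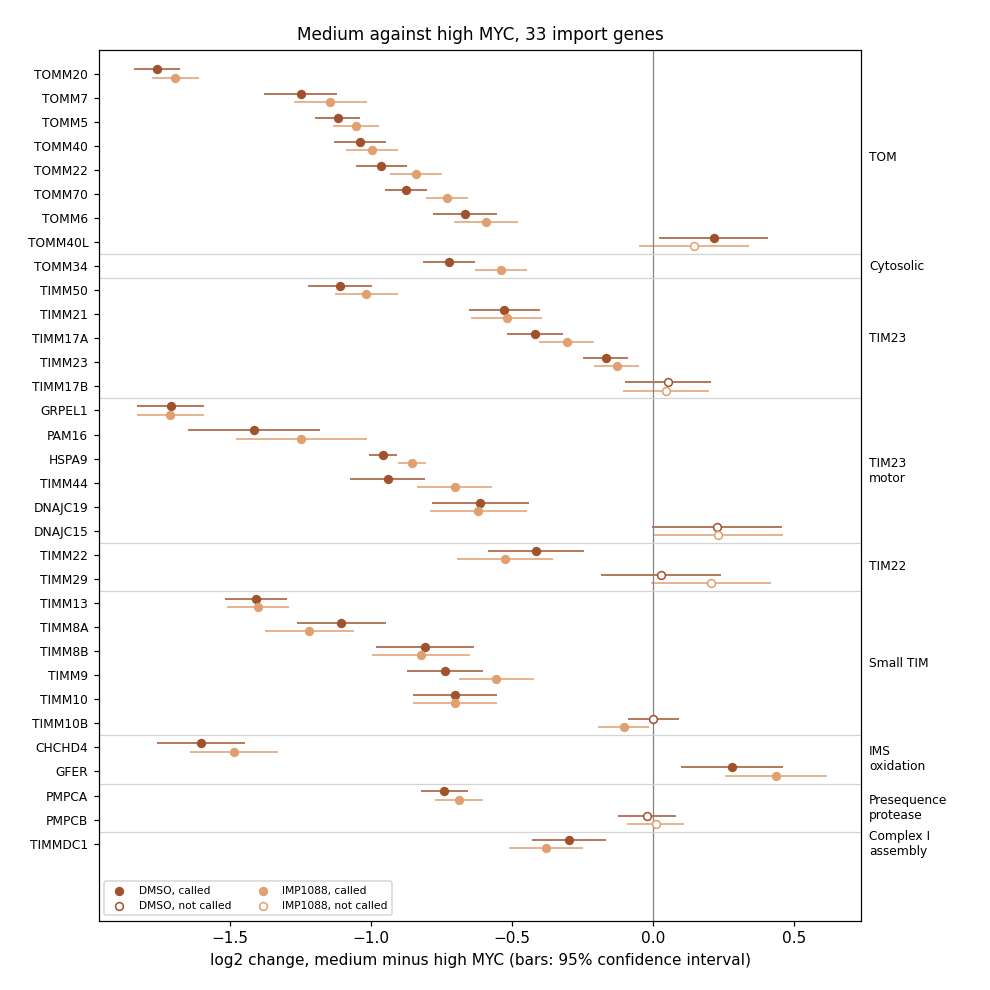
Log2 change from high to medium MYC (x axis) for each of the 33 genes (y axis, grouped by role), in DMSO (dark) and IMP1088 (light); points are limma estimates, bars their 95% confidence intervals, and filled points passed an adjusted p under 0.05. Nearly all filled points lie left of 0, from -1.76 for TOMM20 upward, with GFER to the right in both treatments.

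The balance between paralogs shifted with the MYC setting. In DMSO the normalized count of TIMM17A relative to TIMM17B, with 1 added to each count, as a geometric mean with the lowest and highest library, was 3.38 (3.10 to 3.62) at high and 2.44 (2.15 to 2.57) at medium MYC. For TOMM40 relative to TOMM40L it was 10.3 (9.90 to 10.9) and 4.32 (3.87 to 4.76). For GRPEL1 relative to GRPEL2, which is no member and codes for the other nucleotide exchange factor, it was 2.16 (1.92 to 2.42) and 1.11 (0.94 to 1.22). The ranges of the libraries at high and medium MYC did not overlap for any of the 3 pairs. The shifts themselves were not tested, and no such share was computed over other pairs of genes. GRPEL2 itself also fell with the MYC setting in DMSO, called in all 31 alternatives (log2 change -0.83 to -0.69), but by less than GRPEL1. With IMP1088 the ratios at high and medium MYC were 3.23 (2.999 to 3.40) and 2.53 (2.40 to 2.87) for the TIMM17 pair, 9.91 (8.96 to 11.3) and 4.49 (3.94 to 5.18) for the TOMM40 pair, and 2.06 (1.95 to 2.15) and 0.93 (0.84 to 1.09) for the GRPEL pair. The ratios are not corrected for transcript length, so only their shift between groups can be read, not which paralog is more abundant.

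**Figure D3:**
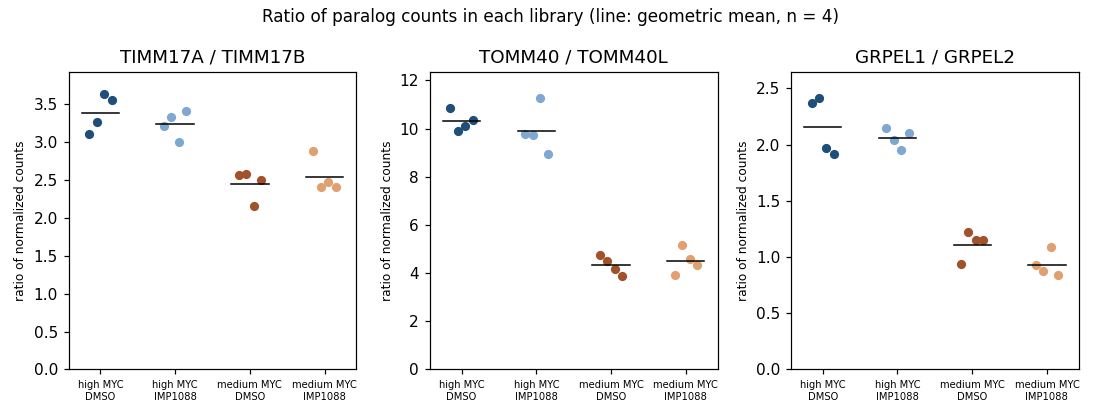
Ratio of the normalized counts of 3 paralog pairs (y axis, linear, from 0) in each of the 16 libraries, by group (x axis); points are libraries and the line is the geometric mean (n = 4). All 3 ratios are lower at medium than at high MYC, TOMM40 over TOMM40L falling from 10.3 to 4.32 in DMSO.

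Other genes of the import and folding system that are no members were measured in the same fit. Of 21 other genes of import, sorting and membrane insertion, 17 fell and 3 rose at medium MYC in DMSO (median -0.53). Over all genes 37.3% were called lower and 38.9% higher in that comparison, the shares beside which this and the next 3 counts stand. The intermediate peptidase MIPEP, which trims some presequences further, changed by -1.80, BCS1L, which assembles complex III, by -1.58, the inner membrane peptidase IMMP2L by -1.30, and DNLZ, a helper of HSPA9, by -1.07. Of 7 MICOS genes, whose products shape cristae, 6 fell, among them CHCHD6 (-1.41), MICOS10 (-0.92), MICOS13 (-0.85) and APOO (-0.81). Of 12 mitochondrial chaperones and proteases 8 fell and 2 rose. The HSP90 of mitochondria, TRAP1, fell (-2.26, limma adjusted p 1e-20), and the folding chaperonin subunits HSPD1 (-1.58) and HSPE1 (-1.27) and the protease LONP1 (-0.77) fell too. Among 19 twin CX9C proteins, the class of clients that CHCHD4 oxidises, 12 fell and 1 rose, with a smaller median of -0.29. CHCHD10 (-1.16), UQCRH of complex III (-1.08) and COA4 (-1.02) fell, while COX17, a copper chaperone for cytochrome oxidase, rose by 0.82 (limma adjusted p 8.24e-10).

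At high MYC few import genes responded to IMP1088. Of the 33, 3 rose and 2 fell, with a median of -0.00 on the log2 scale, while 26.8% of all tested genes were called, 10.5% higher and 16.3% lower (1442 and 2247 genes), with a median of -0.02. Quantile normalization moved this split over all genes to 1727 higher and 1770 lower and left 6 members called. At an unadjusted p under 0.05 there were 10 members, against 37.3% of all genes. TOMM20 rose: its high MYC libraries, as given above, had 2618 ± 174 normalized counts in DMSO and 3019.9 ± 44.1 (mean ± SD, n = 4) with IMP1088, without overlap. The log2 change was 0.21 (SE 0.04, limma adjusted p 0.000442), a rise of 15.5%. This is small beside its 3.39-fold fall with the MYC setting. The summed B cell and fibroblast markers given above were lower in every IMP1088 library than in every DMSO library at high MYC, and the summed plasma cell markers were higher. MYC RNA was higher too, as given above. The part of these shifts in the responses of the import genes was not tested.

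TIMM10B (ENSG00000132286, chr11:6481447-6484679, plus strand) was the second to rise, with 557, 530.1, 519 and 538 normalized counts in DMSO and 588, 619, 576 and 594 in IMP1088 libraries. All IMP1088 libraries lay above all DMSO libraries, and the log2 change was 0.15 (SE 0.04, limma adjusted p 0.013). TOMM70 (ENSG00000154174, chr3:100363431-100401398, minus strand) had 1558, 1692, 1639 and 1539 against 1779.8, 1761, 1771 and 1677. These groups overlapped, since 1 IMP1088 library lay below the highest DMSO library, at 0.12 (SE 0.04, limma adjusted p 0.0152). LNP1, which shares 206 exon bases with TOMM70 on the opposite strand, had means of 106 and 150.2 normalized counts in these groups; its part in the TOMM70 values was not tested. Without high MYC IMP1088 replicate 2 the adjusted p of TIMM10B was 0.0505, and without high MYC DMSO replicate 4 that of TOMM70 was 0.0603, so each call depends on that library.

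Against these, the pore TOMM40 (ENSG00000130204, chr19:44890569-44903689, plus strand) fell. It had 1860.3, 1710.4, 1796 and 1689.9 normalized counts in DMSO and a tight 1545, 1544, 1537 and 1527 with IMP1088. All IMP1088 libraries were below all DMSO libraries, and the log2 change was -0.20 (SE 0.04, limma adjusted p 0.00203). TOMM34 (ENSG00000025772, chr20:44942130-44960486, minus strand) also fell, with 782, 796, 768 and 805 in DMSO and 713, 699, 747 and 704 in IMP1088 libraries. The groups did not overlap (-0.14 (SE 0.04, limma adjusted p 0.0225)), but 7 of 32 alternatives, among them DESeq2, lost this call, with adjusted p up to 0.0812 and, for 4 of the libraries left out (DMSO replicates 2 and 4, IMP1088 replicates 2 and 4), between 0.0546 and 0.0639. TIM23, motor, TIM22, relay and protease genes had no call. Nearest among these were CHCHD4, without overlap at -0.19 (SE 0.07, limma adjusted p 0.0609), and DNAJC19 at 0.20 (SE 0.08, limma adjusted p 0.0802). edgeR's quasi-likelihood test on the recovered reads called 8 members, adding CHCHD4, DNAJC19 and TIMM8A, and DESeq2 called 4.

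At medium MYC 8 members rose with IMP1088 and 1 fell, with a median of 0.06. Of all genes 26.3% were called, 11.7% higher and 14.6% lower (1606 and 2012 genes), with a median of -0.01. Scaling to equal library totals moved this split to 1962 higher and 1658 lower and left 9 members called. The members' 8 rises of 33 stood beside 11.7% of all genes called higher, and 13 members against 36.6% of all genes had an unadjusted p under 0.05. At this setting too the summed B cell and fibroblast markers were lower and the plasma cell markers higher in every IMP1088 library than in every DMSO library. The summed T cell markers, mainly CD3E, were lower (52.2 to 77.9 in DMSO, 33.8 to 41.7 with IMP1088). Higher were the sums of myeloid markers, mainly LYZ (51.7 to 60.5, 78.7 to 83.6), and of epithelial markers (60.5 to 78.8, 84.6 to 112). MYC RNA was higher too, as given above. The part of these shifts in the responses at medium MYC was not tested. TOMM20 rose again, from the medium MYC DMSO counts given above to 931 ± 24.4 from 771 ± 22.7, without overlap, at 0.27 (SE 0.04, limma adjusted p 2.02e-05). TOMM70 had 874, 859.6, 862 and 903 normalized counts in DMSO and 1088, 1043, 1054 and 1020.4 with IMP1088. All IMP1088 libraries lay above all DMSO libraries here (0.27 (SE 0.04, limma adjusted p 7.85e-06), a rise of 20.2%), with LNP1 means of 34.03 and 58.8. GFER, given by library above, went from 172 ± 12.6 to 203 ± 4.19 without overlap, at 0.24 (SE 0.09, limma adjusted p 0.0459). This call was lost in 13 of 32 alternatives, with an adjusted p of 0.141 without medium MYC DMSO replicate 1.

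Beyond the receptors, HSPA9 rose from 3596 ± 53.99 to 3975 ± 54.9 without overlap (0.14 (SE 0.02, limma adjusted p 0.000105)), and its tether TIMM44 from 324 ± 35.3 to 376 ± 13.4 with overlap (0.22 (SE 0.06, limma adjusted p 0.0145)). TIMM9 (0.18 (SE 0.06, limma adjusted p 0.0466)), TOMM22 (0.12 (SE 0.04, limma adjusted p 0.0391)) and TOMM5 (0.11 (SE 0.04, limma adjusted p 0.0477)) passed by little. TIMM9 lost its call in 21, TOMM5 in 19 and TOMM22 in 11 of 32 alternatives, and without medium MYC DMSO replicate 1 the adjusted p of TIMM44 was 0.0669. TOMM40 was the gene that fell, from 843, 812, 948 and 826 in DMSO to 750.3, 787, 799 and 742 with IMP1088. The groups did not overlap, the nearest libraries being at 799 and 812, and the log2 change was -0.15 (SE 0.04, limma adjusted p 0.0127). Without medium MYC DMSO replicate 3, the highest of its group, the change was -0.10 with an adjusted p of 0.0519. A correction for transcript GC content also ended the call, at -0.08 (limma adjusted p 0.0763, and 0.0597 with a replicate block), which left no member lower at medium MYC. At high MYC the same correction gave TOMM40 a change of -0.12 with a limma adjusted p of 0.00997, and at medium MYC it gave TOMM5 a change of 0.07 with 0.232. TOMM40L pointed the same way without passing (-0.21, interval -0.40 to -0.02). edgeR called 9 members and DESeq2 5. Summed over members, the share of reads was 0.172% ± 0.00174 with IMP1088 against 0.160% ± 0.000747 (SD, n = 4) in DMSO at medium MYC, and 0.296% ± 0.00253 against 0.289% ± 0.00377 at high MYC.

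TOMM20 and TOMM70 were called higher and TOMM40 lower at both MYC settings, TOMM40 at medium MYC with the limits just given. These are 3 of the 5 members called at high MYC and 3 of the 9 called at medium MYC, beside 1809 of all genes called in the same direction at both settings, 49% of the calls at high and 50% of those at medium MYC, so nothing about the members is read from this overlap. The opposite signs of these receptors and of the pore were seen in genes named by their calls. They are a description, and the contrast of receptors and pore was not tested. The signs of all 6 changes were the same in all 32 alternatives, which reuse the same libraries. The receptor TOMM22 was called higher at medium MYC only, and its estimates at high MYC ran from -0.02 to 0.03 over the alternatives.

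**Figure D4:**
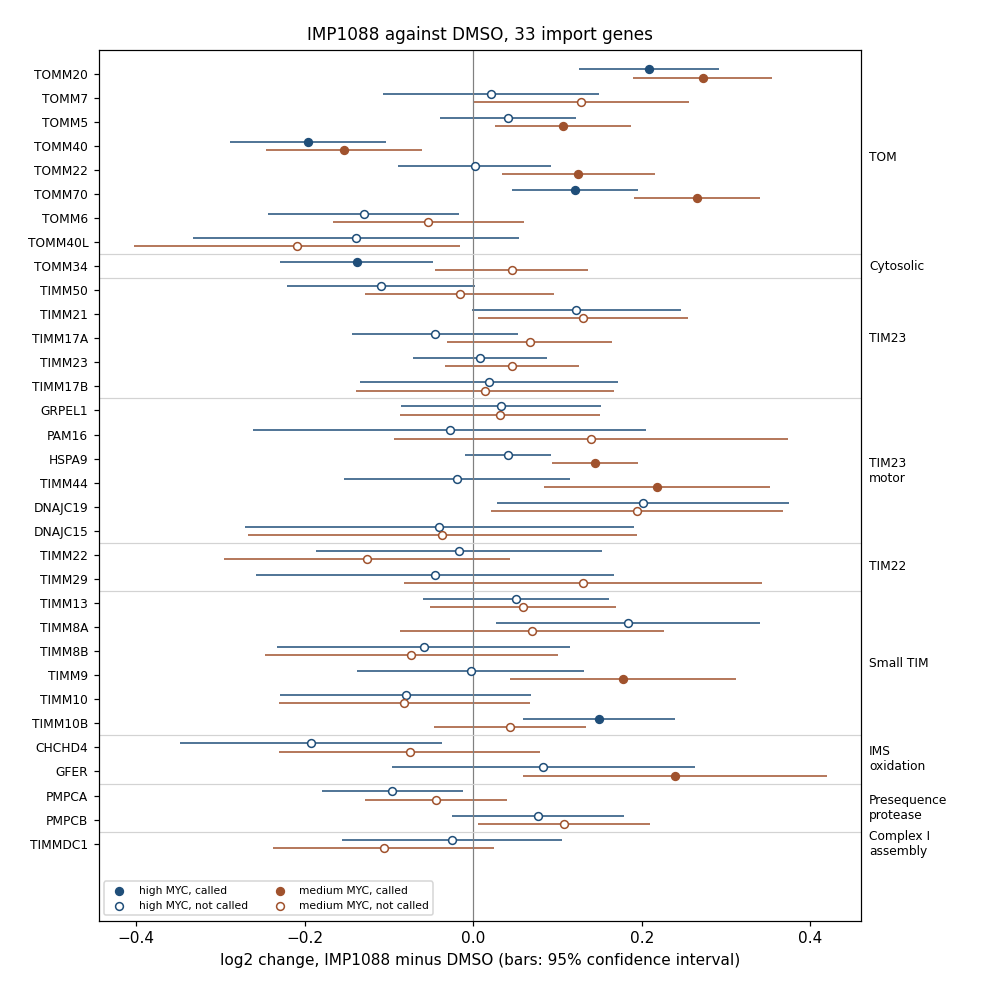
Log2 change with IMP1088 against DMSO (x axis) for each of the 33 genes (y axis, grouped by role), at high MYC (blue) and medium MYC (brown); points are limma estimates, bars their 95% confidence intervals, and filled points passed an adjusted p under 0.05. TOMM20 and TOMM70 lie right and TOMM40 left of 0 at both settings, and all estimates lie between -0.21 and 0.27.

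Of 59 other genes of these lists, 2 rose and 6 fell with IMP1088 at high MYC, where 10.5% of all genes were called higher and 16.3% lower. At medium MYC 3 rose and 5 fell, beside 11.7% and 14.6%. SAMM50, the core of the machinery that inserts β-barrel proteins such as TOMM40 into the outer membrane, fell at both settings (-0.22 (SE 0.05, limma adjusted p 0.000981) and -0.16 (SE 0.05, limma adjusted p 0.0138)), each without overlap. The call at medium MYC was lost with equal library totals, at an adjusted p of 0.0525. The insertase MTCH2 fell (-0.21) and the cytochrome oxidase assembly factor COX19 rose (0.22) at high MYC, and GRPEL2 rose (0.29) at medium MYC, each called in all 32 alternatives.

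Each of the other calls among these genes was lost in at least 1 alternative. At high MYC AIFM1, the partner of CHCHD4 in import (-0.15), lost its call in 9 of 32 alternatives, with adjusted p up to 0.107, CHCHD3 of MICOS (-0.13) in 2, up to 0.058, and the protease CLPP (-0.20) in 6, up to 0.122. NDUFA8 of complex I (-0.17) lost it in 13, up to 0.134, and MTX3, the gene called higher beside COX19 (0.17), in 12, up to 0.157. Leaving out 1 library ended the call of AIFM1 for DMSO replicates 2, 3 and 4 and IMP1088 replicates 2 and 3, of CLPP for DMSO replicates 1 and 3 and IMP1088 replicate 2, of NDUFA8 for DMSO replicates 1, 2 and 3 and IMP1088 replicates 1 and 4, and of MTX3 for DMSO replicates 1 and 2 and each IMP1088 replicate. With GC correction CLPP changed by -0.11 and MTX3 by 0.10. At medium MYC APOOL of MICOS (0.19) lost its call in 3 alternatives, up to 0.0995, the protease YME1L1 (0.14) in 1 (0.0508), MIPEP (-0.17) in 8, up to 0.222, HSPE1 (-0.14) in 2, up to 0.0555, NDUFS5 (-0.14) in 5, up to 0.0826, and IMMT (-0.11) in 2, up to 0.0749. The libraries whose loss ended them were DMSO replicate 3 for APOOL, YME1L1 and IMMT, IMP1088 replicates 1 and 2 for APOOL, DMSO replicates 1 and 4 and IMP1088 replicate 1 for MIPEP, DMSO replicate 4 for HSPE1, and DMSO replicate 1 and IMP1088 replicates 2 and 4 for NDUFS5.

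Whether the MYC setting altered the response was tested directly as the change with IMP1088 at medium minus that at high MYC. None of the 33 members was called by limma, edgeR or DESeq2, where 8.63% of all genes were called (5.33% higher, 3.31% lower). At an unadjusted p under 0.05 there were 4 members, TOMM70, TOMM34, TIMM44 and HSPA9, against 21.2% of all genes. All 4 were more positive at medium MYC: TOMM70 by 0.14 (SE 0.05, limma adjusted p 0.0861), TOMM34 by 0.18 (SE 0.06, limma adjusted p 0.0723), TIMM44 by 0.24 (SE 0.09, limma adjusted p 0.121) and HSPA9 by 0.10 (SE 0.03, limma adjusted p 0.07). The median difference over the members was 0.05, against 0.02 over all genes. Estimates ran from -0.11 for TIMM8A to 0.24 for TIMM44, and the 95% intervals of all members lay between -0.35 and 0.50, so differences of that size are not shown to be absent. For TOMM20 the difference was 0.06 with an interval of -0.05 to 0.18, and for TOMM40 0.04 with -0.09 to 0.17. Calls at a single setting, such as TIMM10B and TOMM34 at high MYC or HSPA9, TIMM44, TIMM9, TOMM22, TOMM5 and GFER at medium MYC, are therefore not shown to differ between the settings. TOMM34 and TIMM44 did pass without medium MYC DMSO replicate 3, with adjusted p of 0.019 and 0.0187.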

How the data were processed

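RNA-seq of the 16 libraries was deposited as normalized counts, a signal that is never negative, for 58051 gene identifiers. The submitters' processing notes name STAR 2.5.2a, RSEM 1.2.31, DESeq2 1.16.1 and GRCh38, with the annotation release and strand use not given in the sources used here. Per the file headers and values, each deposited signal was a whole number of reads (within 0.001) divided by a library factor, for 100% of values, and the factors matched median-of-ratios factors in 16 of 16 libraries. Symbols matched 56948 identifiers, and positions come from GENCODE release 29. From these values limma 3.58.1 in R 4.3.3 was fitted to log2(value + 1), for 13765 genes with a mean of at least 10, with 4 group means over all libraries, a mean trend and Benjamini-Hochberg adjustment, two-sided. Fold changes are on that scale, which understates changes of low genes. Recovered reads were also tested with edgeR 4.0.16 and with DESeq2 1.42.0 as alternatives, with other scalings, pseudocounts, filters, replicate blocks and libraries left out. The fits were tested on simulated counts. Values and intervals cover counting and replicate spread only. The members and gene lists were chosen with earlier results of these data known. Genes given by library were up to 3 with the largest rise and 3 with the largest fall among called members per comparison. Up to 4 called genes of each other list were named.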

Additional observations from a re-analysis of the deposited data

Results flagged for a closer look

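In 10 of the 132 sets of 4 libraries (33 genes in 4 groups), 1 library stood apart by Dixon's test, where chance gives about 1 in 20 sets. At medium MYC in DMSO these were TOMM7 in replicate 4 (the highest at 275.73 normalized counts), PAM16 in replicate 1 (highest, 88.662), and PMPCA (highest, 1022.17) and PMPCB (lowest, 775.379) in replicate 3. At high MYC in DMSO it was GRPEL1 in replicate 2 (highest, 1000.63). With IMP1088 at high MYC they were TIMM9 (highest, 323.76) and PMPCA (highest, 1596.11) in replicate 3 and TIMM10 in replicate 4 (highest, 375.253), and at medium MYC TIMM22 in replicate 3 (lowest, 239.18) and GFER in replicate 2 (highest, 209.603). Without medium MYC IMP1088 replicate 2 the response of GFER was 0.22 on the log2 scale, with a limma adjusted p of 0.101. Without high MYC IMP1088 replicate 3 the response of PMPCA at high MYC was called, at -0.13 with a limma adjusted p of 0.0326, and TIMM9 at medium MYC was not, with 0.0506. For the other 7 sets, leaving out the library that stood apart moved no call of that gene.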

How the results depend on the processing

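Over all alternatives no result of a member reversed, and the 26 falls with the MYC setting in DMSO kept their calls in all 31. For IMP1088 at high MYC the 5 members called became 8 with edgeR and 3 to 7 with a library left out, 3 without high MYC IMP1088 replicate 2. At medium MYC the 9 became 5 with no filter, 5 with DESeq2 and 5 to 9 with a library left out, 5 without medium MYC IMP1088 replicate 1 or 3. For the difference in response, 0 members became 1 with equal library totals (TOMM34), 1 with quantile normalization (HSPA9), 3 with a GC correction (TOMM34, TIMM44 and HSPA9), 2 with that correction and the replicate block (TOMM34 and TIMM44), and 0 to 2 with a library left out, 2 without medium MYC DMSO replicate 3; the cause was not tested. For medium against high MYC the members called ran from 27 to 28 in DMSO and from 27 to 30 with IMP1088 when a library was left out. The GC corrections were chosen after seeing the data. With GC correction 6 members were called at high and 7 at medium MYC, none of the 7 lower. Over all genes, the GC correction called 1643 for the difference in response against 1188. Residuals of same-numbered libraries correlated little on average. The mean correlation was -0.0715 between the high MYC arms and -0.0235 between the medium MYC arms. Between the DMSO arms it was 0.0243, with 0.239 for replicate 4, and between the IMP1088 arms -0.0182. Weak correlations cannot show that the libraries were not paired. Counts over all genes with a replicate block were 3468 for IMP1088 at high MYC, 3425 at medium MYC, 1052 for their difference, 10419 for MYC in DMSO and 10601 with IMP1088, against 3689, 3618, 1188, 10485 and 10664. The members called under the block were 5, 6, 0, 27 and 28. The fewest reads of a member in a library were 63, for PAM16, a counting error of 12.6%. Standard errors of the log2 responses ran from 0.02 for HSPA9 to 0.11 for PAM16, and up to 0.16 for the difference in response, so changes of the size called here could be missed in the members with few reads.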
